A study of Saccharomyces cerevisiae with 14 samples.

Results

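Late-loss sites are positions in yeast mRNA where less of the RNA was cut by MazF at 7 and 8 h of meiosis than at 3.5 to 5 h, with no such step earlier. MazF is a bacterial RNase that cleaves 5′ of ACA, provided that the leading A is unmethylated, so a lower cleavage efficiency, the fraction of RNA cut at a site, means that more of the RNA stayed whole. The sites were chosen on the cleavage values themselves. For each site with a value at 1, 2, 3.5, 4, 5, 7 and 8 h, the early mean was taken over 1 and 2 h, the middle mean over 3.5, 4 and 5 h and the late mean over 7 and 8 h. A site was kept if its early mean stood less than 0.04 above its middle mean and its middle mean at least 0.04 above its late mean. This held for 51 of the 395 sites with all 7 values, or 12.9%, out of 1184 distinct sites in the table. The 51 sites lay in 51 genes on 13 chromosomes, 26 of them on the minus strand.

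N6-methyladenosine, the mark that shields a site from MazF, is laid down on yeast mRNA during meiosis by a complex whose catalytic subunit is Ime4. Cells that starve for nitrogen and fermentable sugar enter meiosis, copy their DNA, recombine their chromosomes and pass through pachytene, the stage of full synapsis, before they divide. Ndt80 is the transcription factor needed to leave pachytene, and cells without it stop there with their chromosomes paired. Uncut RNA at a site is read as a possible methyl group only when cleavage in cells without Ime4 is set beside it.

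The libraries were made from polyA RNA of diploid yeast of the SK1 strain, a background known for rapid and synchronous sporulation, grown in YPD before meiosis was induced. All groups were MAT a/alpha, with lys2 mutated on both homologues, LYS2 placed at ho, and ndt80 replaced by LEU2 on both homologues. The wild-type course had 1 library at each of 0, 1, 2, 3, 3.5, 4, 5, 6, 7 and 8 h, and 4 control samples at 8 h, 2 of which also lacked ime4, were not analysed here because no column name could be tied to them. No hour was replicated and the reads behind a value are unknown, so no interval is given for a single value. A value is an average over the cells of a culture, so that a lower cut share in every cell and a different mix of cells cannot be told apart. The table gave a value for 299 sites at 0 h, 613 at 1 h, 988 at 2 h, from 891 to 1171 between 3 and 6 h, 740 at 7 h and 626 at 8 h. Cleavage values do not check the genotype. Without values from the ime4 deletion, how much of the uncut RNA at these sites carried a methyl group was not tested.

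The median late-loss site was highly cut through 6 h. Its median cleavage efficiency was 0.890, 0.853 and 0.883 at 1, 2 and 3.5 h, then 0.911 and 0.898 at 4 and 5 h. It was 0.778 and 0.829 at 7 and 8 h, values that chose the sites and are given as a description. At 6 h, a library that the rule did not read, the median was still 0.879. At 3 h, also unread, it was 0.855 over 50 sites. The difference between middle and late means ran from 0.0449 to 0.260, with a median of 0.0827, against a median of -0.00943 over all 395 sites. The difference between early and middle means ran from -0.179 to 0.0319, with a median of -0.00834, so the middle mean was slightly above the early mean at the median site. The middle values of a site spanned a median of 0.0545, and the late difference was larger than that site's own span at 35 of the 51 sites, against 60 of all 395 (15.2%). The rule read the same values, so it favours this count.

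**Figure D1:**
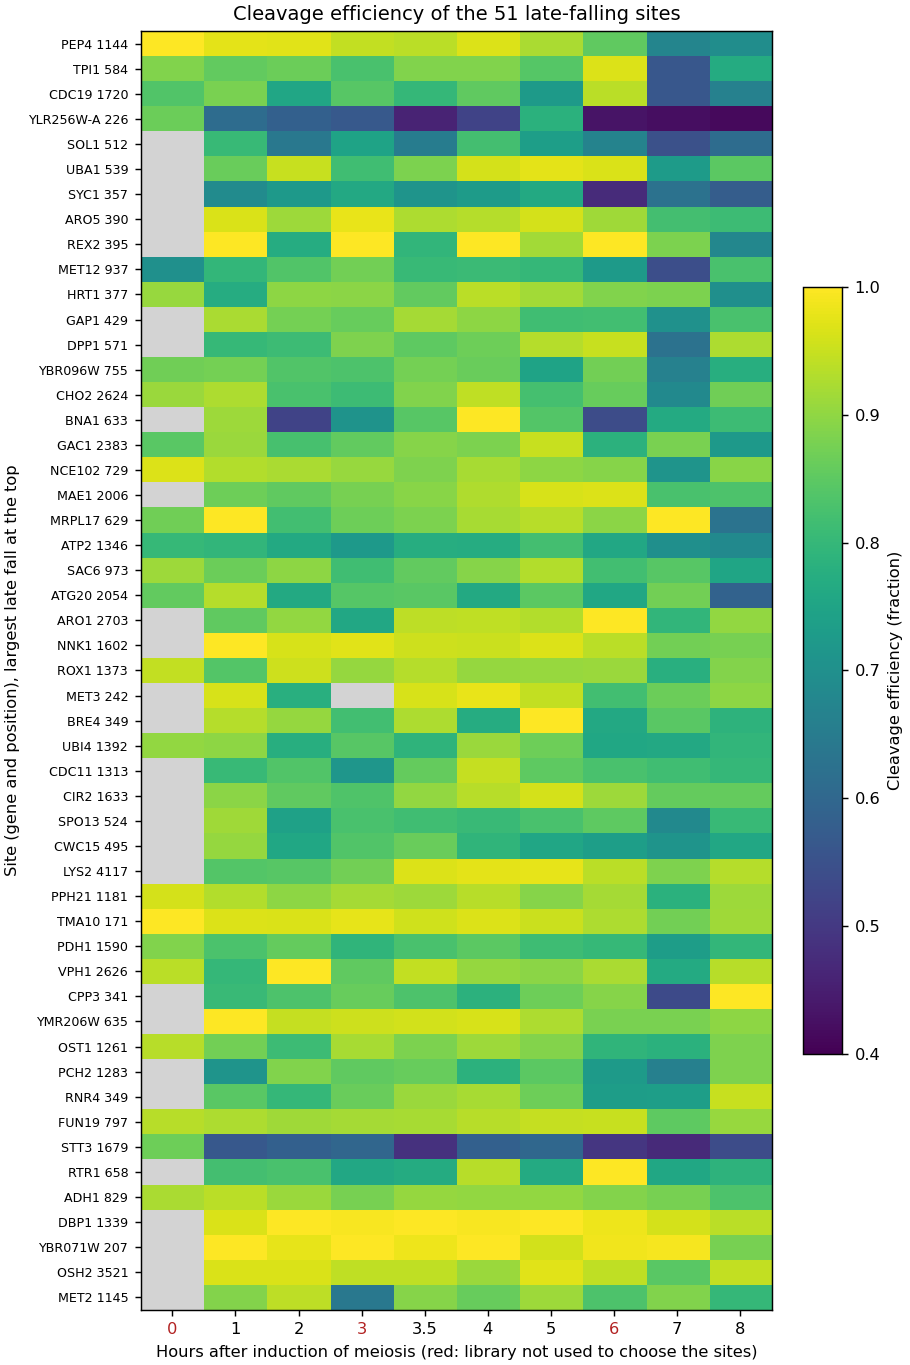
Cleavage efficiency (colour, as a fraction) of the 51 late-loss sites (rows, ordered by the difference between middle and late means) in the 10 libraries (columns, hours after induction; grey, no value; red hours, libraries the rule did not read). The dark cells gather at 7 h and 8 h, and most rows are still light at 6 h.

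The 7 h library carried more of the late difference than the 8 h library. Against the middle mean, 7 h was lower by a median of 0.0977 and 8 h by 0.0614. Over all 395 sites these medians were -0.00194 and -0.0182. The 7 h value was below the 8 h value at 34 of the 51 sites (66.7%), near the 60.3% of all 395. At 24 of the 51 sites both late values were lower than the middle mean by 0.04 or more (8.86% of all 395 sites, 35 sites). At 18 sites (35.3%) only the 7 h value was that much lower, and at 9 (17.6%) only the 8 h value, against 20.8% and 10.4% of all 395. The single late libraries were lower by that step at 29.6% (7 h) and 19.2% (8 h) of all 395 sites, and the rule read both. At 7 of the 18 sites resting on 7 h, the 8 h value was at or above the middle mean, as it was at 63.8% of all 395. Those 7 were CPP3, DPP1, MET12, OSH2, PCH2, RNR4 and VPH1. The rule required a lower late mean, which keeps such counts low. At 3 of the 9 sites resting on 8 h, in ATG20, MRPL17 and YBR071W, the 7 h value was at or above the middle mean (51.9% of all 395). The site in MRPL17, a gene for a protein of the large mitochondrial ribosomal subunit, went the furthest in this way, with 1.00 and 0.627 at 7 and 8 h. CPP3 was its opposite, with 0.535 and 1.00 at 7 and 8 h.

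**Figure D2:**
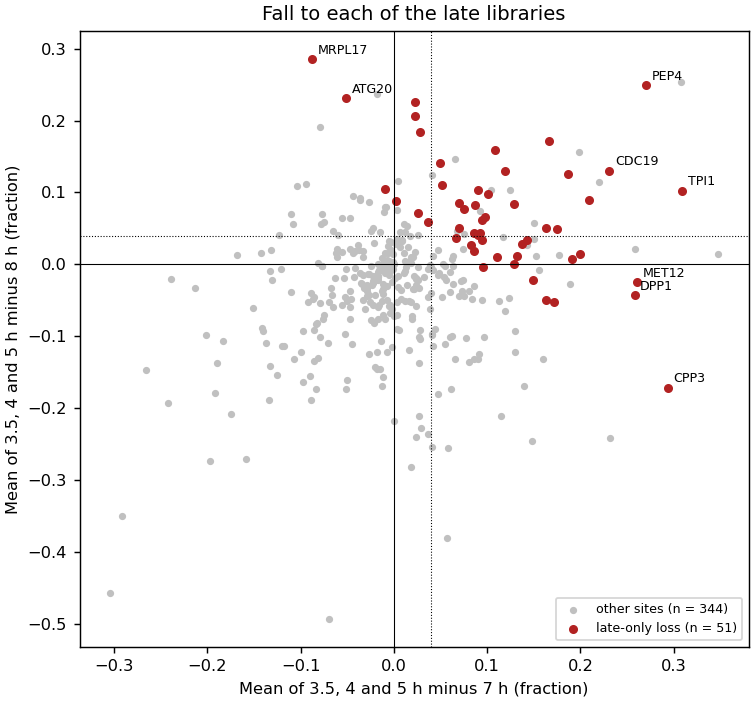
Middle mean (3.5, 4 and 5 h) minus the 7 h value (x axis) and minus the 8 h value (y axis), both as fractions, for the 51 late-loss sites (red) and the other sites with all 7 values (grey); dotted lines mark the step of 0.04. PEP4, CDC19 and TPI1 were lower in both libraries, while CPP3, DPP1 and MET12 stood apart at 7 h only and MRPL17 and ATG20 at 8 h only.

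Both late values lay below all 3 middle values at 27 of the late-loss sites, a pattern that 10.6% of all 395 sites had. They lay below all 5 earlier values that the rule read (1, 2, 3.5, 4 and 5 h, not 3 h) at 18 sites, against 7.85% of all. Since the rule read the same values, nothing follows from these shares. Membership also rested on single libraries: 13 of the 51 sites met the rule without any 1 of the 7 libraries. These 13 were TPI1, UBA1, SYC1, ARO5, BNA1, MAE1, ATP2, SAC6, MET3, CDC11, CIR2, LYS2 and TMA10. Without the 7 h library 18 of the 51 sites no longer met it, without 2 h 13, without 8 h 9, and without any 1 of the other 4 libraries from 3 to 6.

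By role, the sites are described as shares of fixed gene lists, to be read against the 12.9% of all 395 complete sites that were late-loss sites; the differences named are the values that chose them. Of 7 sites in genes of glycolysis and fermentation with all 7 values, 3 were late-loss sites, in TPI1, CDC19 and ADH1. The list's median difference between middle and late means was 0.0486, with 4 sites lower late by the step and 1 higher. TPI1 encodes triose phosphate isomerase, and its site (YDR050C, position 584, chromosome 4, 570618, minus strand) was cut by 0.885, 0.856, 0.864 and 0.827 at 0, 1, 2 and 3 h, then by 0.887, 0.887, 0.841 and 0.968 at 3.5, 4, 5 and 6 h, then by 0.563 and 0.769 at 7 and 8 h. Its highest value thus came 1 h before its lowest. CDC19 encodes pyruvate kinase, and its site (YAL038W, position 1720, chromosome 1, 82408, plus strand) was at 0.836, 0.879, 0.756 and 0.845 at 0, 1, 2 and 3 h, at 0.801, 0.853 and 0.727 at 3.5, 4 and 5 h, and at 0.939, 0.563 and 0.663 at 6, 7 and 8 h. It had the same shape, highest at 6 h and lowest at 7 h. The sites in TPI1 and CDC19 shared their 7 h value to all digits given, with each other and with 3 more sites, and what such equal values rest on was not tested. ADH1, the main alcohol dehydrogenase of fermentation (YOL086C, position 829, chromosome 15, 159162, minus strand), was cut by 0.924, 0.938, 0.910 and 0.878 at 0 to 3 h, by 0.905, 0.904 and 0.902 at 3.5, 4 and 5 h, by 0.888, 0.878 and 0.833 at 6, 7 and 8 h. Its values stayed within a narrow band. Both late ones were below the 5 earlier values that the rule read, while the 3 h value was level with the 7 h value.

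The largest late difference of the 51 sites, 0.260, was in the vacuole. PEP4 encodes proteinase A, which activates the other vacuolar proteases, and its site (YPL154C, position 1144, chromosome 16, 269299, minus strand) was cut by 1.00, 0.976, 0.974 and 0.944 at 0, 1, 2 and 3 h, then by 0.937, 0.969, 0.923 and 0.855 at 3.5, 4, 5 and 6 h, then by 0.673 and 0.694 at 7 and 8 h. The values from 6 h on were the lowest of the course, and both late values stood far below the rest. This site was also the nearest to the limit on the early step, with an early mean of 0.975 and a middle mean of 0.943. VPH1, a membrane subunit of the vacuolar proton pump, was at 0.945, 0.905 and 0.895 at 3.5, 4 and 5 h, at 0.924, 0.766 and 0.937 at 6, 7 and 8 h. It had been at 0.800 at 1 h and 0.853 at 3 h, and without the 1 h or the 7 h library it no longer met the rule. Of the 6 complete sites of autophagy, vacuolar proteases and the proton pump, these 2 were late-loss sites, and the list's median difference was -0.000507. ATG20, a sorting nexin of selective autophagy that stands outside that list, was at 0.872 and 0.589 at 7 and 8 h after a middle mean of 0.820.

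UBA1 encodes the ubiquitin-activating enzyme, and its site (YKL210W, position 539, chromosome 11, 41353, plus strand) was cut by 0.862, 0.949 and 0.817 at 1, 2 and 3 h, then by 0.881, 0.961 and 0.974 at 3.5, 4 and 5 h, then by 0.965, 0.729 and 0.849 at 6, 7 and 8 h. It had no value at 0 h. UBI4, the polyubiquitin gene, was at 0.791, 0.911 and 0.869 in the middle libraries, 0.757, 0.763 and 0.796 at 6, 7 and 8 h, so that its late values were level with its 6 h value. In the list of proteasome and ubiquitin genes 2 of 18 complete sites were late-loss sites, with a list median of 0.00627. HRT1, the RING subunit of SCF ubiquitin ligases, which stands outside that list, rested on 8 h alone, with 0.882 and 0.698 at 7 and 8 h against a middle mean of 0.904.

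Of 12 complete sites in genes of respiration and mitochondrial metabolism, 2 were late-loss sites. ATP2 encodes the beta subunit of ATP synthase, and its site (YJR121W, position 1346, chromosome 10, 663445, plus strand) was cut by 0.802, 0.795, 0.763 and 0.725 at 0, 1, 2 and 3 h, by 0.773, 0.771 and 0.821 at 3.5, 4 and 5 h, by 0.759, 0.698 and 0.684 at 6, 7 and 8 h. The late pair was the lowest of the course, with the 3 h value next. The other is a site listed both under YLR256W-A (position 226) and under HAP1 (YLR256W, position 4633), the gene of a heme-dependent activator (chromosome 12, 650101, plus strand). It was cut by 0.865, 0.613, 0.585 and 0.568 at 0, 1, 2 and 3 h, then by 0.459, 0.521, 0.783 and 0.432 at 3.5, 4, 5 and 6 h, then by 0.421 and 0.416 at 7 and 8 h. It was well below its 0 h value from 1 h on except at 5 h, and its middle mean was raised by the 5 h library: without 5 h it no longer met the rule. Which gene's RNA the values of this site come from was not tested. ROX1, the repressor of hypoxic genes, was at 0.778 and 0.888 at 7 and 8 h after a middle mean of 0.915. MAE1, the mitochondrial malic enzyme, was at 0.894, 0.930, 0.964 and 0.969 from 3.5 to 6 h, and then at 0.829 and 0.832 at 7 and 8 h.

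Biosynthesis of amino acids and nucleotides had 4 late-loss sites among 17 complete ones, while the list's median difference was -0.0109 and 4 of the 17 were higher late by the step. They lay in ARO1, a multifunctional enzyme of the shikimate pathway, in MET3, ATP sulfurylase of sulfate assimilation, in LYS2, the aminoadipate reductase of lysine synthesis, and in MET2, homoserine acetyltransferase. MET3 was at 0.965 and 0.779 at 1 and 2 h, 0.964, 0.981 and 0.945 in the middle libraries, 0.818, 0.865 and 0.898 at 6, 7 and 8 h. Its values at 2 h and 6 h were lower than both late ones. LYS2 was at 0.840, 0.845 and 0.872 at 1, 2 and 3 h, at 0.969, 0.976 and 0.978 at 3.5, 4 and 5 h, at 0.938, 0.884 and 0.934 at 6, 7 and 8 h, which is a high plateau in mid course rather than a late low. The strain carries LYS2 at ho, so this gene is also a marker of the strain. ARO1 was at 0.759, 1.00, 0.795 and 0.903 at 3, 6, 7 and 8 h. Outside the list, MET12, an isozyme of methylenetetrahydrofolate reductase, was at 0.804, 0.810 and 0.799 in the middle libraries, 0.728, 0.544 and 0.829 at 6, 7 and 8 h. GAP1, the general amino acid permease, was at 0.920, 0.898 and 0.816 in the middle libraries, 0.818, 0.703 and 0.829 at 6, 7 and 8 h, and was 1 of 8 complete sites in nutrient and ion transporters. BNA1, of NAD synthesis, was at 0.911, 0.520 and 0.708 at 1, 2 and 3 h, 0.843, 1.00 and 0.840 in the middle libraries, 0.539, 0.766 and 0.810 at 6, 7 and 8 h, so its 2 h and 6 h values were its lowest.

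Lipid synthesis, a list with 21 complete sites, had 1 late-loss site. It lay in CHO2, which methylates phosphatidylethanolamine, and was at 0.887, 0.943 and 0.822 in the middle libraries, 0.859, 0.685 and 0.870 at 6, 7 and 8 h. DPP1, a lipid phosphatase of the vacuole, was at 0.851, 0.867, 0.932 and 0.949 from 3.5 to 6 h, at 0.625 and 0.926 at 7 and 8 h. Both had their lowest value at 7 h. In the list of cell wall and glycosylation genes 2 of 16 complete sites were late-loss sites, both in subunits of the oligosaccharyl transferase, which moves sugar chains onto nascent proteins. STT3, its catalytic subunit, was cut by 0.867, 0.566, 0.583 and 0.597 at 0, 1, 2 and 3 h, then by 0.487, 0.585, 0.601 and 0.496 at 3.5, 4, 5 and 6 h, then by 0.472 and 0.539 at 7 and 8 h. Its widest gap between neighbouring hours was from 0 h to 1 h. OST1 was at 0.881, 0.913 and 0.888 in the middle libraries, 0.794, 0.784 and 0.884 at 6, 7 and 8 h.

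Meiotic genes gave 2 late-loss sites among 10 complete sites of early recombination and synapsis, with a list median of -0.00533, 4 sites lower late by the step and 1 higher. SPO13, which helps sister kinetochores face the same pole in the first division, was at 0.915, 0.743 and 0.827 at 1, 2 and 3 h, 0.817, 0.807 and 0.828 in the middle libraries, 0.850, 0.685 and 0.805 at 6, 7 and 8 h. PCH2, the ATPase of the recombination checkpoint, was at 0.709, 0.885 and 0.854 at 1, 2 and 3 h, 0.862, 0.785 and 0.850 in the middle libraries, 0.728, 0.660 and 0.884 at 6, 7 and 8 h (YBR186W, position 1283, chromosome 2, 588941, plus strand). Both were back at or near their middle values at 8 h. RNR4, a small subunit of ribonucleotide reductase, 1 of only 2 complete sites of DNA replication and repair, was at 0.734, 0.736 and 0.949 at 6, 7 and 8 h after a middle mean of 0.899. None of the 2 complete sites in regulators of meiotic entry, of the 2 of the methylation writer and reader or of the 3 of histones and chromatin met the rule.

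Further sites lay in genes of RNA processing and of the cytoskeleton, and SOL1 and ARO5, in none of the lists, are given here for their large late difference. SYC1, a subunit of the cleavage and polyadenylation machinery (YOR179C, position 357, chromosome 15, 670263, minus strand), was cut by 0.688, 0.721 and 0.762 at 1, 2 and 3 h, by 0.711, 0.729 and 0.766 at 3.5, 4 and 5 h, by 0.473, 0.627 and 0.577 at 6, 7 and 8 h. All 3 values from 6 h on were lower than every earlier one. SOL1 (YNR034W, position 512) was at 0.652, 0.820 and 0.736 in the middle libraries, 0.668, 0.549 and 0.611 at 6, 7 and 8 h, and ARO5 (YGL117W, position 390) at 0.926, 0.932 and 0.962, then 0.915, 0.821 and 0.810. REX2, an RNA exonuclease, stood at 1.00 at 1, 3, 4 and 6 h, at 0.772 and 0.678 at 2 and 8 h. SAC6, the actin bundling protein fimbrin, was at 0.856, 0.891 and 0.931 in the middle libraries, 0.819, 0.844 and 0.752 at 6, 7 and 8 h. CDC11, a septin, was at 0.859, 0.947 and 0.850, then 0.827, 0.816 and 0.800. These 2 were the late-loss sites among 7 complete ones of cytoskeleton, spindle and nuclear pore.

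Single sites stood in several other lists. TMA10, a ribosome-associated stress protein, was 1 of 7 complete sites of heat shock and stress, with 0.998, 0.951 and 0.927 at 0, 5 and 6 h, then 0.873 and 0.915 at 7 and 8 h. NNK1, a kinase, was at 0.969, 0.938, 0.871 and 0.876 at 5, 6, 7 and 8 h. PPH21, a catalytic subunit of phosphatase 2A, was at 0.919, 0.784 and 0.912 at 6, 7 and 8 h, and with NNK1 made up the late-loss sites among 12 of kinases, phosphatases and nutrient signalling. DBP1, a DEAD-box helicase that acts in translation, was at 1.00, 0.984, 0.961 and 0.939 at 5, 6, 7 and 8 h, and OSH2, an oxysterol-binding protein, at 0.973, 0.944, 0.847 and 0.946. None of 12 complete sites of acetate use and gluconeogenesis was a late-loss site, nor any of 10 listed under mitochondrial genome expression, import and contacts. None of the 4 listed under RNA processing, export and decay was one either. The lists do not hold every gene of these roles: MRPL17 stands outside the mitochondrial list, and SYC1, REX2 and CWC15 outside the RNA list. In all, 28 of the 51 genes were in at least 1 of 25 lists and 23 in none. GAC1, a regulatory subunit of the Glc7 phosphatase, rested on 8 h, with 0.879 at 7 h and 0.724 at 8 h after a middle mean of 0.907. NCE102, a membrane protein of eisosomes, rested on 7 h, with 0.710 there and 0.894 at 8 h after 0.901. PDH1 (0.735 at 7 h, middle mean 0.830) and FUN19 (0.851 at 7 h, middle mean 0.934) did so too, while BRE4, CIR2, CWC15 and YMR206W were lower in both late libraries, by 0.0760 in CIR2 and 0.0604 in YMR206W on the late mean.

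The libraries at 3 h and 6 h, which did not choose the sites, asked whether the loss had begun by 6 h. Between 3 h and 6 h the median difference over the 50 late-loss sites with both values was -0.000220 (3 h minus 6 h), against 0.0384 over all 836 sites with both values. This contrast rested on how the sites were chosen: with the 7 h library left out of the rule the median was 0.0354 and 48.1% were lower by 0.04 or more, and with both late libraries required to be lower it was 0.0432. At 6 h, 19 of the 50 sites, or 38.0%, were lower than at 3 h by 0.04 or more, against 49.3% of all sites, and 13, or 26.0%, were higher by as much, against 15.4%. With 1 library at each hour there is no replicate and no test. In the same libraries 37.8% of the 172 sites with no loss at either step were lower by 0.04, 61.3% of the 142 with a loss by the middle hours only and 58.3% of the 24 with a loss in both steps. The shares higher at 6 h by as much were 8.72%, 12.7% and 16.7% in these groups, all below the 26.0% of the late-loss sites. No test of these differences was made. Of the 51 sites, 27 were higher at 6 h than at both 7 h and 8 h, 17 lay between them and 7 were lower than both. The rule chose sites with low values at 7 h and 8 h, so it favours the first of these counts. Against the middle mean, the 6 h value was lower by 0.04 or more at 21 of the 51 and level or higher at 16. The rule also read the middle mean. Neither set of counts was made over all complete sites, so nothing follows from them. Among the 24 sites that were lower in both late libraries, 12 of 23 (52.2%) were lower at 6 h than at 3 h by 0.04. Among those resting on 7 h alone it was 5 of 18, and among those resting on 8 h alone 2 of 9.

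The sites lower at 6 h than at 3 h by the most were in SYC1 (0.289, 3 h minus 6 h), BNA1 (0.169) and MET12 (0.145). Next came the site listed under YLR256W-A and HAP1 (0.136), then RNR4 (0.128) and OST1 (0.127). Other sites were higher at 6 h by similar or wider margins. ARO1 and RTR1, a phosphatase of RNA polymerase II, both stood at 0.759 and 1.00 at 3 and 6 h (-0.241 each). MET2 (-0.192), UBA1 (-0.148) and TPI1 (-0.141) also went this way. 

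**Figure D3:**
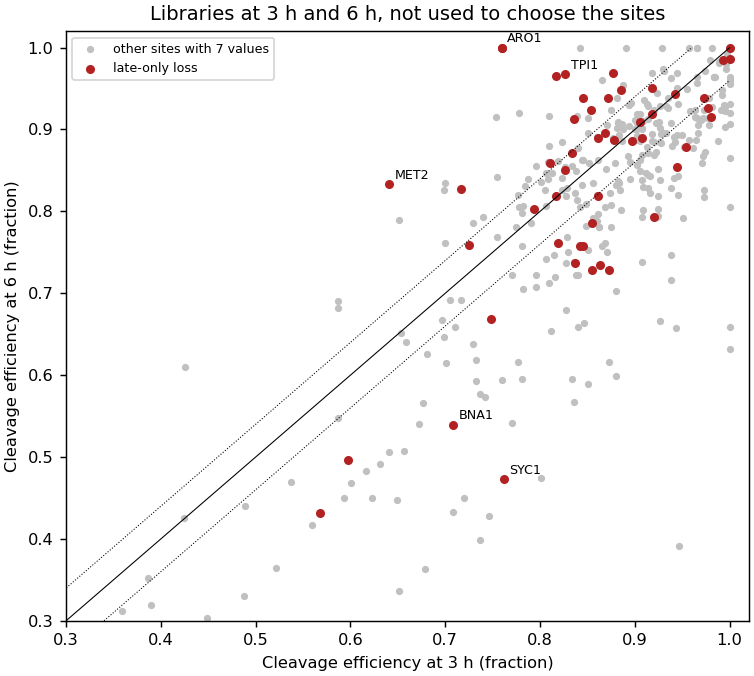
Cleavage efficiency at 3 h (x axis) and at 6 h (y axis), as fractions, for the late-loss sites (red) and the other sites with all 7 values (grey; values under 0.3 are not drawn); the solid line marks equal values and dotted lines a difference of 0.04. Of the 50 late-loss sites 19 lie below the lower dotted line and 13 above the upper one.

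The 0 h library qualifies the name of the group. Of the 24 late-loss sites with a value at 0 h, 14 were lower at 3 h than at 0 h by 0.04 or more (58.3%, against 52% of all 277 sites with both values). This share is near that of all sites. Higher by as much at 3 h was 1 of the 24 (4.17%, against 13%). Their median difference was 0.0448 (0 h minus 3 h), against 0.0397 over the 214 complete sites with both values. When 0, 1 and 2 h together formed the early window, 20 of the 24 still met the rule. Single values before 7 h were also lower than both late ones at some sites, as in MET2 (0.641 at 3 h), CDC11 (0.716 at 3 h), ARO1 (0.759 at 3 h), MET3 (0.779 at 2 h) and BNA1 (0.520 at 2 h), so the name describes the means that the rule compared and not every library.

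A straight line over 0, 3 and 6 h was fitted to the 273 sites with all 3 values with limma, on the fraction. No site passed an adjusted p of 0.05 (lowest adjusted p 0.241), so 0% were called, and no late-loss site and no member of any list was called in either direction. Before adjustment, with p under 0.05, the slope was negative at 49 sites (17.9%) and positive at 2 (0.733%). Of the 24 late-loss sites tested 4 had a negative slope at that level and 0 a positive one. The 4 were in PEP4, TMA10, STT3 and the site listed under YLR256W-A and HAP1. The slope in PEP4 was -0.0242 ± 0.00436 per hour (SE, limma adjusted p = 0.241) and in TMA10 -0.0120 ± 0.00257 (limma adjusted p = 0.241). At the site listed under YLR256W-A and HAP1 it was -0.0721 ± 0.0187 (limma adjusted p = 0.241) and in STT3 -0.0618 ± 0.0185 (limma adjusted p = 0.259). Slopes were negative at 18 of the 24 sites (75%), against 83.2% of the 273, with medians of -0.00790 and -0.0112 per hour. With libraries shifted to 1 median, 9 of the 24 slopes were negative (37.5%, against 46.2% of all). With p under 0.05 before adjustment, 0 of the 24 were negative and 2 positive, beside 21 and 24 of the 273 sites.

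**Figure D4:**
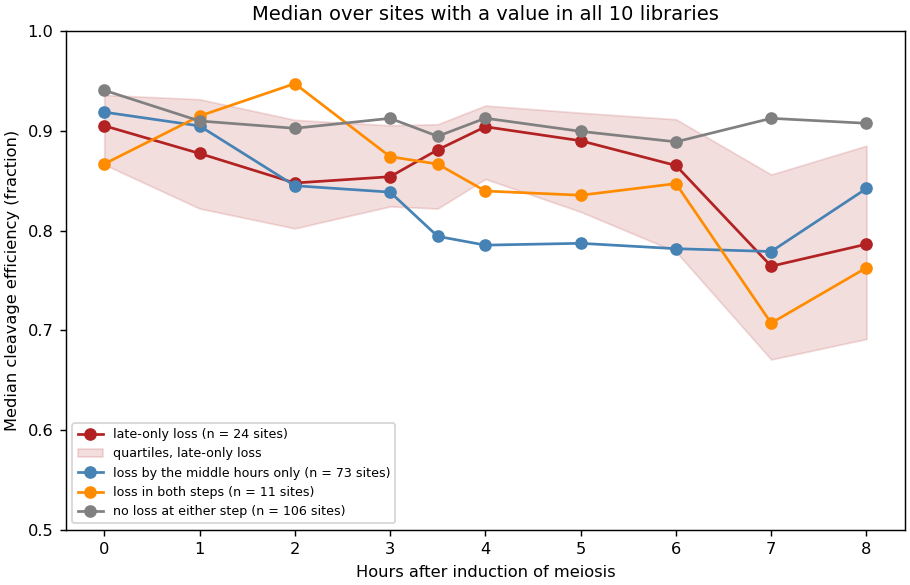
Median cleavage efficiency (fraction, y axis from 0.5 to 1) by hour over sites with a value in all 10 libraries, for the late-loss sites (red, 24 sites, shaded between the quartiles) and the sites with a loss by the middle hours only (blue, 73), in both steps (orange, 11) or in neither (grey, 106). The red line is at 0.865 and 0.764 at 6 and 7 h, and the blue line is already at 0.794 at 3.5 h.

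Over the 214 sites measured at every one of the 10 hours, the 24 late-loss sites had a median of 0.904 at 4 h, next to 0.913 for the 106 sites with no loss and above 0.785 for the 73 with a loss by the middle hours only. At 7 h the medians were 0.764, 0.913 and 0.779, and at 8 h 0.786, 0.908 and 0.842. The rule read the values at 4, 7 and 8 h, so nothing follows from the order of the groups there. At 6 h, which the rule did not read, the late-loss sites were at 0.865, between 0.889 and 0.782.

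In 8 of the genes another site also had all 7 values, and none of these other sites met the rule. Only 12.9% of all 395 complete sites met it, so none among so few is near that share. In PEP4 the site at position 1434, 290 bases on, was at 0.883, 0.883 and 0.865 in the middle libraries, 0.877, 0.878 and 0.863 at 6, 7 and 8 h, while position 1144 was at 0.673 and 0.694 in the last 2. In UBA1 the site at position 2982 was at 0.691, 0.691, 0.710 and 0.639 at 5, 6, 7 and 8 h. The ATP2 site at position 1738, 392 bases from the late-loss site, was at 0.779, 0.831, 0.912 and 0.862 at 5, 6, 7 and 8 h, higher late by 0.0643. In MET2 position 191 was higher late by 0.0315 and in YBR071W position 270 by 0.0819. GAP1 1841 was lower late by 0.0267, with 0.805 and 0.678 at 7 and 8 h, where position 429 had its lowest value at 7 h. YBR096W 425 was nearly level late, at 0.776 and 0.769. PCH2 was the exception: position 1670 was lower late by 0.177, from 0.431 at 5 h to 0.252 and 0.295 at 7 and 8 h, but it was also lower in the middle than the early hours by 0.176. Hours in which both sites of a gene have a value come from 1 library each, so the differences between sites have no replicate.

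**Figure D5:**
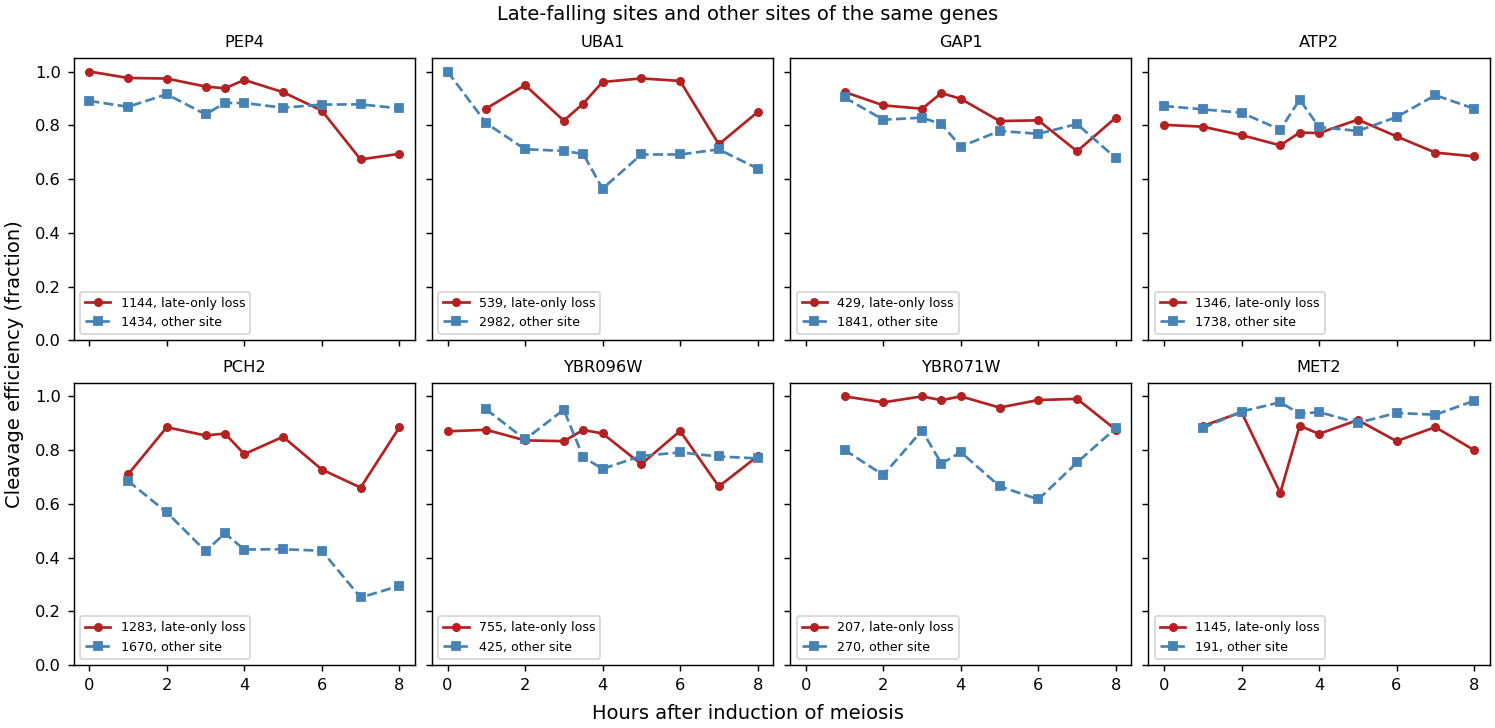
Cleavage efficiency (fraction, y axis) by hour after induction (x axis) at the late-loss site (red, solid) and at another site (blue, dashed) of the 8 genes with a second site with all 7 values; numbers in the keys are positions within the gene. In PEP4 the late-loss site stands at 0.673 at 7 h and the other at 0.878, while in PCH2 both are low at 7 h, at 0.660 and 0.252.

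Near the limit on the late step, the sites just inside were MET2 (0.0449, middle minus late mean), OSH2 (0.0456) and YBR071W (0.0480), and those just outside ACS1 (0.0390), CDC42 (0.0378) and PAR32 (0.0359). On the early step the sites just inside were PEP4 (0.0319, early minus middle mean), ATG20 (0.0285) and CWC15 (0.0280), and those just outside HAP4 (0.0408), CUS1 (0.0444) and YER079W (0.0527). HAP4 had a late difference of 0.104, so that it differed from the late-loss sites mainly by its early step.

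The late loss has a counterpart of gains. A late mean at least 0.04 below the middle mean, which the rule required, was found at 75 of the 395 sites (19%), and one at least 0.04 above it at 102 (25.8%). With the signs of the rule turned, a late gain without an early one, 98 sites qualified, against 51 with a late loss. The turned rule set no limit on a loss by the middle hours, so sites that dipped and returned are among the 98. Values shared with another site to all digits were common: 27 of the 51 late-loss values at 7 h (52.9%, against 41.0% of the 395 sites) and 31 of 51 at 8 h (60.8%, against 46.3%). The part of such values in the late difference was not tested. A value of exactly 1 in any of the 7 libraries occurred at 10 of the 51 sites (19.6%), against 27.8% of the 395. The position within the gene was beyond the coding length of the R64 reference at 15 of the 51 sites (29.4%), against 36.4% of 387 sites in matched protein-coding genes, so positions are not counted within coding sequence alone. A value at 0 h was present at 24 of the 51 sites (47.1%), against 54.4% of the 395.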

How the data were processed

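Cleavage efficiencies are fractions deposited by the authors, 1 per site and library, from 0.00442 to 1 with missing values. STAR 2.5.3a and bedtools 2.26.0 are listed in the submitters' processing notes. For the counting of cut and uncut reads, the coverage, the site filters and the build, no details are given in the sources used here. The hour in a column name gave its sample, and 4 columns matching no label were not used. Of 1198 rows, 14 repeats of a position were removed, keeping the first. Gene names came from R64, which matched 1002 of 1020 identifiers. At most 30 of the 1184 listed positions start an ACA motif in R64 with a shift of up to 2 bases, so coordinates are printed as deposited and no sequence was read.

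The late-loss sites and the 25 gene lists were chosen with earlier results of these data known. The genes named were the 12 with the largest late difference and the 6 lower at 6 h than at 3 h by the most. Up to 3 sites per list, genes with another complete site, and the 3 sites at each side of each limit were also named. All other late-loss genes named, such as DPP1, MAE1, MRPL17, CIR2, CPP3 and RTR1, were named after their values were seen. The trend over 0, 3 and 6 h was fitted with limma 3.58.1 in R 4.3.3, with a mean-dependent prior variance, 1 residual degree of freedom per site and Benjamini-Hochberg adjustment at 0.05. On simulated data that step was checked only for recovering a known slope. How many truly changed sites it can call with 3 libraries is not given here. The rest was computed in Python 3.11.15 with pandas 2.3.3.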

Additional observations from a re-analysis of the deposited data

How the results depend on the processing

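The number of late-loss sites was 62 with a step of 0.03 and 44 with 0.06, of which 50 and 41 were among the 51. Leaving out each of the 7 libraries gave from 40 (without 2 h) to 67 (without 8 h) sites, with 38 and 42 of the 51 among them. The median difference between 3 h and 6 h ran from -0.00161 to 0.0354 in those fits and the count lower at 6 h from 13 to 25. Without 7 h, 33 of the 51 sites remained, the median difference was 0.0354 and 48.1% were lower at 6 h, close to the 49.3% of all sites. With a late step of at least 0.10 there were 17 sites, with a median difference of 0.0432 and 9 lower at 6 h. With 7 h and 8 h each lower by 0.04 there were 24, with a median of 0.0432 and 12 lower. With 0 h in the early window, chosen after seeing the data, 25 of 215 sites qualified, 9 of them lower at 6 h. With 6 h in the late window there were 55 and with 3 h in the middle window 52, both also chosen after seeing the data. Shifting the libraries to 1 median gave 67 sites and 1 site called, rising, over 0, 3 and 6 h, and it was not a late-loss site. Without sites at exactly 1 there were 41. On the logit scale the median difference was -0.00295.

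The depth behind a value limits every comparison and is unknown. The planned comparison of the ime4 deletion with wild type was not run, as no column name matches those samples. No paired analysis was possible because the columns used carry no replicate numbers.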

Other observations

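Sites with a late gain, the mirror of the rule, had a median cleavage efficiency of 0.869, 0.769 and 0.764 at 1, 3.5 and 5 h, then 0.853 and 0.884 at 7 and 8 h over 98 sites. The largest gain was in BDP1, a subunit of the RNA polymerase III factor TFIIIB, whose site (position 1939) was at 0.821 and 0.573 at 1 and 2 h and at 0.428, 0.320, 0.720 and 0.871 at 5, 6, 7 and 8 h. NRD1, of transcription termination, was at 0.947, 0.350 and 0.949 at 3, 5 and 8 h. Both sites had thus been higher before the middle hours, and both met the limit for a loss by the middle hours. At 6 h 52.6% of these sites with both values were lower than at 3 h by 0.04. This is near the 49.3% of all 836 sites with both values, and the late-loss sites had 38.0%. These sites were named after their values were seen.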
